A study of Gallus gallus with 24 samples.

Results

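The interaction of heat and L-citrulline asks whether the difference between 35 °C and 24 °C in the chicken hypothalamus depended on the diet. All 24 libraries entered it, 1 per bird and 6 per group, and 13742 of the 16779 genes in the count table passed the filter on low counts and were tested. The 4 groups of Ross 308 broilers, sampled on day 42, were given 1% L-citrulline in the feed at 35 °C, the same feed at 24 °C, basal feed at 35 °C or basal feed at 24 °C. Birds were assigned to the temperatures on day 28 at 60% relative humidity, and 1 chicken came from each of 6 replicates of 12 per treatment. The labels state neither sex nor how many chambers ran at each temperature, so chamber and temperature cannot be told apart. For each gene the value is the log2 difference between 35 °C and 24 °C on the L-citrulline diet minus that on the basal diet. The same number is the L-citrulline difference at 35 °C minus that at 24 °C. A positive value means a higher heat difference on the L-citrulline diet, and errors after ± are standard errors from the fit. The number of birds is 6 in each group, except for values given without some birds or among only 1 class of birds.

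The hypothalamus holds the warm-sensitive neurons that drive heat loss, and the peptide neurons that control feeding, stress hormones, growth and reproduction. Birds exposed to heat for days eat less and lower their metabolic heat production. L-citrulline is an amino acid that argininosuccinate synthase and argininosuccinate lyase turn into arginine, from which nitric oxide synthases make nitric oxide. An interaction is a difference between differences, so it carries the error of all 4 groups, and a gene can show one with no difference between the averages of either factor.

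No gene passed an adjusted p of 0.05 in edgeR's quasi-likelihood test (0 of 13742, 0%), with Benjamini-Hochberg adjustment over all tested genes. At an unadjusted p under 0.05 the same test had 1039 genes (7.56%), of which 453 were higher (3.3%) and 586 lower (4.26%). The DESeq2 Wald test passed 2 genes after adjustment (0.0146% of the 13727 it adjusted) and limma voom passed 0. At an unadjusted p under 0.05 DESeq2 had 1098 genes and limma voom 1069. The smallest adjusted p in edgeR was 0.241, and the smallest for a gene with a symbol was 0.367. The median standard error of the interaction was 0.16, against 0.11 for heat on 1 diet, and the 95% confidence interval of a typical gene reached 0.33 to either side. The lowest and highest twentieths of the tested genes lay beyond -0.54 and 0.43, and the median was 0.0066. In edgeR neither heat on the L-citrulline diet nor heat on the basal diet had a gene past the adjusted threshold. At an unadjusted p under 0.05 the L-citrulline diet had 922 genes (6.71%) and the basal diet 507 (3.69%).

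Across the 13742 genes the heat differences on the 2 diets, which share no library, had a Pearson correlation of -0.17 and a Spearman correlation of -0.22. They had opposite signs in 7979 genes (58.1%). The L-citrulline differences at the 2 temperatures, which also share no library, had a Pearson correlation of 0.0059 and a Spearman correlation of 0.014. Their signs were opposite in 6774 genes (49.3%). Without genes of chromosomes W and Z the Pearson correlations were -0.17 for heat and -0.071 for L-citrulline. These are descriptions across genes, which are not independent replicates and share the libraries of each difference. Among the 1039 genes at an unadjusted p under 0.05, the 2 heat differences had opposite signs in 1015, a share that choosing genes by their interaction largely fixes.

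Depth was even, at 12635239 to 15001037 counts and 14865 to 15054 detected genes per library. The 32 tested genes of chromosome W, which female birds carry, had a mean log2 CPM (log2 of counts after scaling for library depth) of 4.04 to 4.30 in 12 libraries and of -2.52 to -2.06 in the other 12. High-W libraries numbered 4 of 6 in each L-citrulline group and 2 of 6 in each basal group, so the class was equal between temperatures within each diet. It was unequal between diets, so a heat difference that depends on the class would also enter the interaction. The main fit does not separate the 2. Values among high-W birds thus rest on 4 birds in each L-citrulline group and 2 in each basal group. Those among low-W birds rest on 2 and 4. TTR, the thyroid hormone carrier made by the choroid plexus, was over 1000 CPM in 3 libraries, 2 of them from L-citrulline 24 °C birds (1468 and 1966 CPM) and 1 from a basal 24 °C bird (1707 CPM). Of the transcription factors and other markers of hypothalamic regions, 29 of 30 in the table passed the filter on low counts. So did 25 of 28 markers of neighbouring thalamus, telencephalon and tectum (group medians of mean log2 CPM 3.36 to 3.55). Passing the filter therefore does not check the tissue label. The mean log2 CPM of the hypothalamic markers was 1.99 to 2.38 (median 2.07) in L-citrulline 35 °C birds and 1.54 to 3.09 (median 2.44) in L-citrulline 24 °C birds. It was 2.11 to 2.74 (median 2.5) in basal 35 °C birds and 2.03 to 2.46 (median 2.35) in basal 24 °C birds. The L-citrulline 24 °C group had both the lowest and the highest bird.

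Of the 24 genes with a symbol and the smallest interaction p, 8 were positive and 16 negative. Choice by a small p favours large values and confidence intervals that exclude 0. The intervals given are not adjusted for that choice. In each of the 24 the heat differences on the 2 diets had opposite signs, which the choice by interaction favours. Choice by a small p also favours groups that do not overlap, here and in the lists below. The share of all tested genes without overlap was not counted, so no overlap in a named gene is a description only. Several of the 24 regulate transcription. MNT, a MAX-binding repressor that opposes MYC (ENSGALG00000005830, chr19:9522848-9547621 in GRCg6a), had 15.5 to 17.8 CPM (median 16) in L-citrulline 35 °C birds and 16.2 to 20.9 CPM (median 18.9) in L-citrulline 24 °C birds. On the basal diet it had 15.7 to 18.3 CPM (median 16.9) at 35 °C and 13 to 15.7 CPM (median 14.1) at 24 °C. The basal 24 °C birds were the low group, below all 6 basal 35 °C birds and all 6 L-citrulline 24 °C birds. On the L-citrulline diet the 2 temperatures overlapped. Its interaction was -0.47 ± 0.099 (95% confidence interval -0.68 to -0.27; adjusted p = 0.367 by edgeR's quasi-likelihood test with Benjamini-Hochberg adjustment).

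KAT2A, the histone acetyltransferase also called GCN5 (chr27:7646435-7652243), had 60.4 to 73.7 CPM (median 63.7) in L-citrulline 35 °C birds and 66.5 to 77.7 CPM (median 74.5) in L-citrulline 24 °C birds. The basal groups had 67.4 to 76.1 CPM (median 73.2) at 35 °C and 57.4 to 73.5 CPM (median 61.1) at 24 °C. The temperatures overlapped on both diets, and the interaction was -0.38 ± 0.085 (edgeR adjusted p = 0.367). TAF7L, related to a subunit of the general transcription factor TFIID, had an interaction of -0.37 ± 0.10. Here every basal 35 °C bird lay above every basal 24 °C bird and every L-citrulline 35 °C bird. LARP7, which binds the 7SK RNA that restrains transcription elongation, went the other way with 0.32 ± 0.083, and every basal 35 °C bird lay below every basal 24 °C bird.

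Genes of synapses and neuronal signalling were also among the 24. MDGA1, a membrane-anchored protein that in mammals binds the synapse organiser neuroligin-2 (chr3:30006735-30187312), had 53.1 to 70 CPM (median 62.6) in L-citrulline 35 °C birds and 46.8 to 50.8 CPM (median 49.2) in L-citrulline 24 °C birds. Basal birds had 48.6 to 62.3 CPM (median 58.3) at 35 °C and 56.3 to 75.5 CPM (median 62.2) at 24 °C. The L-citrulline 24 °C birds were the low group, below all 6 L-citrulline 35 °C birds and all 6 basal 24 °C birds. The interaction was 0.50 ± 0.11 (0.27 to 0.74; edgeR adjusted p = 0.367).

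USP46, a deubiquitinating enzyme (chr4:65987993-66011858), had 119.6 to 153 CPM (median 137) in L-citrulline 35 °C birds, 111 to 124 CPM (median 115) in L-citrulline 24 °C birds, 107 to 134 CPM (median 118) in basal 35 °C birds and 123 to 135 CPM (median 132) in basal 24 °C birds. All groups overlapped with their neighbours, and the interaction was 0.34 ± 0.078. SIPA1L2, a GTPase-activating protein for Rap, was likewise positive at 0.58 ± 0.14. CNR1, the cannabinoid receptor of neurons (chr3:76173595-76187438), had 77.6 to 105 CPM (median 85.8) in L-citrulline 35 °C birds and 86.2 to 127 CPM (median 119) in L-citrulline 24 °C birds, against 88.9 to 141 CPM (median 113) in basal 35 °C birds and 83.8 to 112 CPM (median 91) in basal 24 °C birds. Its interaction of -0.61 ± 0.16 came with overlapping groups (edgeR adjusted p = 0.482).

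VWC2L, a secreted protein with a von Willebrand factor C domain (chr7:4153280-4189147), had 7.74 to 12.3 CPM (median 9.34) in L-citrulline 35 °C birds and 12.8 to 18.8 CPM (median 14.6) in L-citrulline 24 °C birds. In basal birds it had 11.4 to 17.8 CPM (median 13) at 35 °C and 9.23 to 15.8 CPM (median 11.2) at 24 °C. The L-citrulline temperatures did not overlap and the basal ones did, with an interaction of -0.94 ± 0.21 (edgeR adjusted p = 0.367). ALPK3, an alpha-kinase (chr10:1343617-1375029), had the opposite sign with 0.89 ± 0.23. It had 8.28 to 14.2 CPM (median 10.7) in L-citrulline 35 °C birds, all above the 4.37 to 8.21 CPM (median 7.15) of L-citrulline 24 °C birds, and overlapping ranges in basal birds. Its value was 0.38 among high-W birds and 1.21 among low-W birds.

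**Figure D1:**
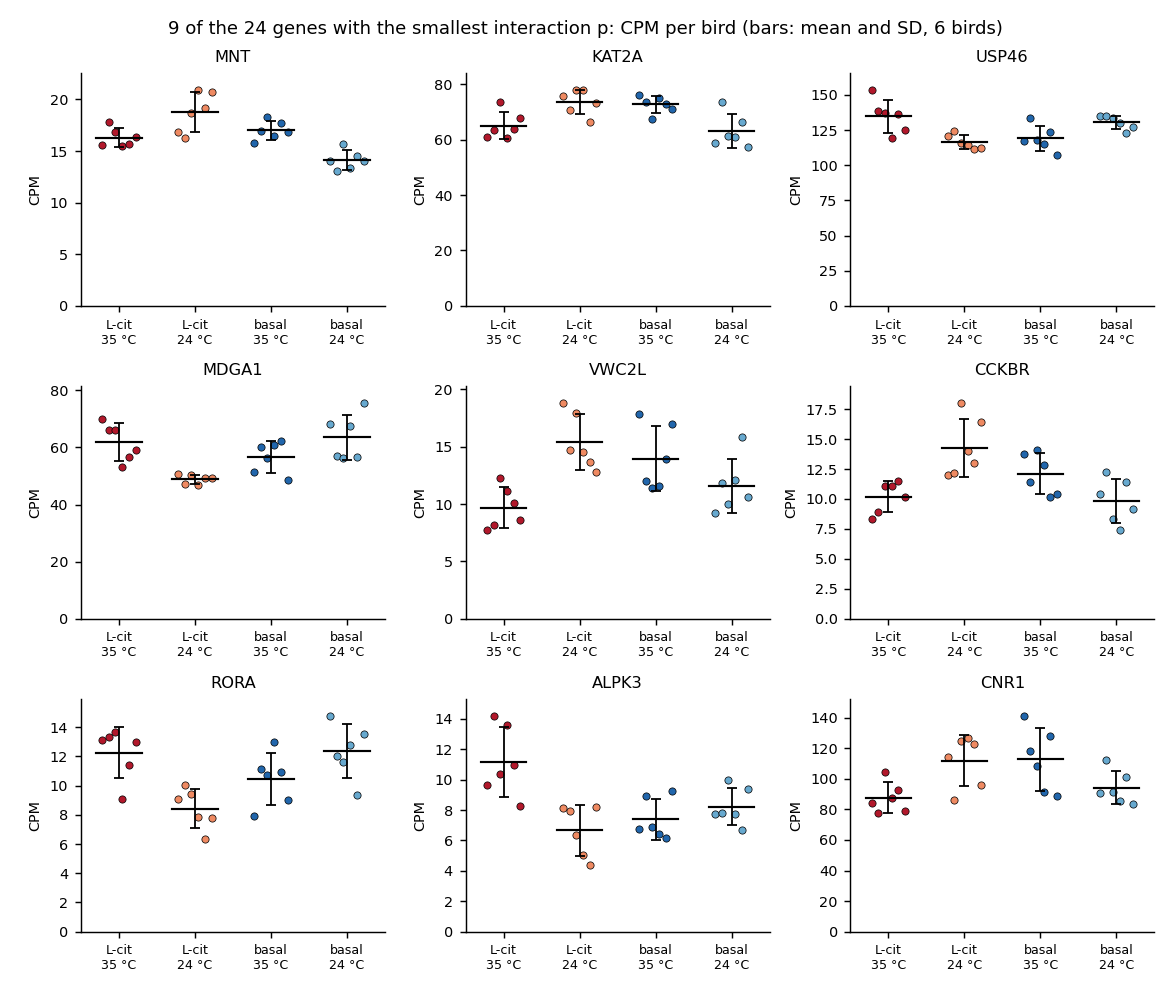
CPM of 9 of the 24 genes in each bird (points), with mean and SD (bars, 6 birds per group), for L-citrulline 35 °C, L-citrulline 24 °C, basal 35 °C and basal 24 °C birds from left to right. In MNT, KAT2A, VWC2L, CCKBR and CNR1 the heat difference was downward on the L-citrulline diet and upward on the basal diet, and in USP46, MDGA1, RORA and ALPK3 the reverse.

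SLC25A1, the carrier that exports citrate from mitochondria, had -0.34 ± 0.092, and GSTO1, a glutathione transferase, -0.68 ± 0.17. PPM1J, a protein phosphatase, had 0.84 ± 0.23, and EIF5A2, an isoform of the translation factor eIF5A, 0.31 ± 0.077. TSPAN33, a tetraspanin, had -0.99 ± 0.25, and FBXO16, a substrate receptor of ubiquitin ligases, -0.98 ± 0.27. Their edgeR adjusted p-values were 0.367 to 0.5. The other members of the 24 belong to cilia, feeding or clock genes and are given with those.

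Genes of motile cilia were lower in heat on the L-citrulline diet and mostly higher in heat on the basal diet. Ependymal cells lining the third ventricle carry these cilia, whose beating moves cerebrospinal fluid along the hypothalamus. Of 40 tested cilia genes, 39 had an interaction below 0 and 1 above 0, against 48.5% and 51.5% of all tested genes. At an unadjusted p under 0.05 were 23 members, all lower, where 4.26% of all tested genes were, and no member passed the adjusted threshold. Their median interaction was -0.67, against 0.0066 over all tested genes. On the L-citrulline diet all 40 were lower at 35 °C (median -0.41), where 47.6% of all tested genes were. On the basal diet 35 of 40 were higher (median 0.23), where 50.1% of all tested genes were. In bulk tissue, fewer cells of a type and less RNA per cell cannot be told apart.

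FOXJ1 and RFX2 are the transcription factors that switch on the programme of motile cilia. FOXJ1 (chr18:4495739-4501676) had 8.3 to 14.4 CPM (median 12) in L-citrulline 35 °C birds and 12.4 to 22.2 CPM (median 17.4) in L-citrulline 24 °C birds. Basal birds had 9.35 to 16.6 CPM (median 11.6) at 35 °C and 5.77 to 14.8 CPM (median 10.2) at 24 °C. The ranges overlapped, and the interaction was -0.80 ± 0.26 (edgeR adjusted p = 0.525). RFX2 (chr28:1679119-1722626) had a similar value of -0.85 ± 0.23, made of -0.50 ± 0.16 on the L-citrulline diet and 0.34 ± 0.17 on the basal diet.

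The axoneme and its assembly factors had the same sign. CFAP99, a cilia-associated protein (chr4:82596511-82644224), had 9.55 to 17.2 CPM (median 12.7) in L-citrulline 35 °C birds and 15.9 to 22.1 CPM (median 18) in L-citrulline 24 °C birds. The basal ranges were 16 to 21.1 CPM (median 17.6) at 35 °C and 11.7 to 18.6 CPM (median 14.3) at 24 °C. The temperatures overlapped on each diet, and the interaction was -0.79 ± 0.19 (edgeR adjusted p = 0.367). DAW1, which helps dynein arms into the cilium (chr9:9704805-9721804), had 8.84 to 15.3 CPM (median 12.6) in L-citrulline 35 °C birds, 12.6 to 22.4 CPM (median 17.4) in L-citrulline 24 °C birds, 11.4 to 18.6 CPM (median 14.2) in basal 35 °C birds and 8.58 to 14.4 CPM (median 11.4) in basal 24 °C birds. Its interaction was -0.82 ± 0.21. CFAP161, found inside ciliary microtubules, had -1.37 ± 0.38.

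Further members spanned the parts of the axoneme. RSPH1 and RSPH4A, of the radial spokes, had -1.30 ± 0.39 and -0.92 ± 0.33. HYDIN, of the central pair, had -0.66 ± 0.24, and DNAH10, an inner-arm dynein heavy chain, -0.98 ± 0.35. ZMYND10, a cytoplasmic factor for dynein arm assembly, had -1.11 ± 0.35, and TEKT2, a tektin of the microtubule wall, -0.74 ± 0.28. DRC7 and DRC1, of the complex that links dyneins, had -1.12 ± 0.36 and -0.54 ± 0.23.

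Other genes among the 24 with cilium or sperm-tail roles had the same sign without being in the list. DLEC1, a cilium-associated protein (chr2:4751686-4787893), had 5.24 to 6.64 CPM (median 5.77) in L-citrulline 35 °C birds, 6.08 to 14.2 CPM (median 9.12) in L-citrulline 24 °C birds, 6.28 to 11.3 CPM (median 6.96) in basal 35 °C birds and 5.01 to 7.04 CPM (median 5.42) in basal 24 °C birds. Its interaction was -1.05 ± 0.25, with -0.62 among high-W birds and -1.44 among low-W birds. LRGUK, known in mouse for sperm tail assembly, had -1.46 ± 0.36, and WDR90, a centriole protein, -0.54 ± 0.15.

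As a level per bird, the mean log2 CPM of the 40 cilia genes was 2.51 to 3.14 (median 2.8) in L-citrulline 35 °C birds and 2.89 to 3.46 (median 3.25) in L-citrulline 24 °C birds. It was 2.89 to 3.28 (median 3.0) in basal 35 °C birds and 2.41 to 3.32 (median 2.7) in basal 24 °C birds. The highest basal 24 °C bird was the one with 1707 CPM of TTR, and without it the median interaction was -0.83. Without all 3 libraries over 1000 CPM of TTR it was -0.73, and with the region markers as a covariate -0.67. Among high-W birds it was -0.61 and among low-W birds -0.70. The choroid plexus, whose epithelium adjoins the ependyma, had 14 tested markers with a median of -0.13. That median was -0.53 without that basal 24 °C bird and 0.0061 without L-citrulline 24 °C bird 5. Of the 14, 10 were below 0, against 48.5% of all tested genes. At an unadjusted p under 0.05, 3 were lower, against 4.26% of all tested genes. On the L-citrulline diet 11 of 14 were lower at 35 °C (median -0.37), against 47.6% of all tested genes. On the basal diet 7 of 14 were lower (median -0.018), against 49.9%. The mean log2 CPM of the choroid plexus markers was 3.68 to 4.18 (median 3.83) in L-citrulline 35 °C birds, 3.76 to 4.92 (median 3.87) in L-citrulline 24 °C birds, 3.48 to 4.08 (median 3.78) in basal 35 °C birds and 3.55 to 4.63 (median 3.6) in basal 24 °C birds. The part of the choroid plexus in the cilia values was not tested beyond leaving out those libraries.

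**Figure D2:**
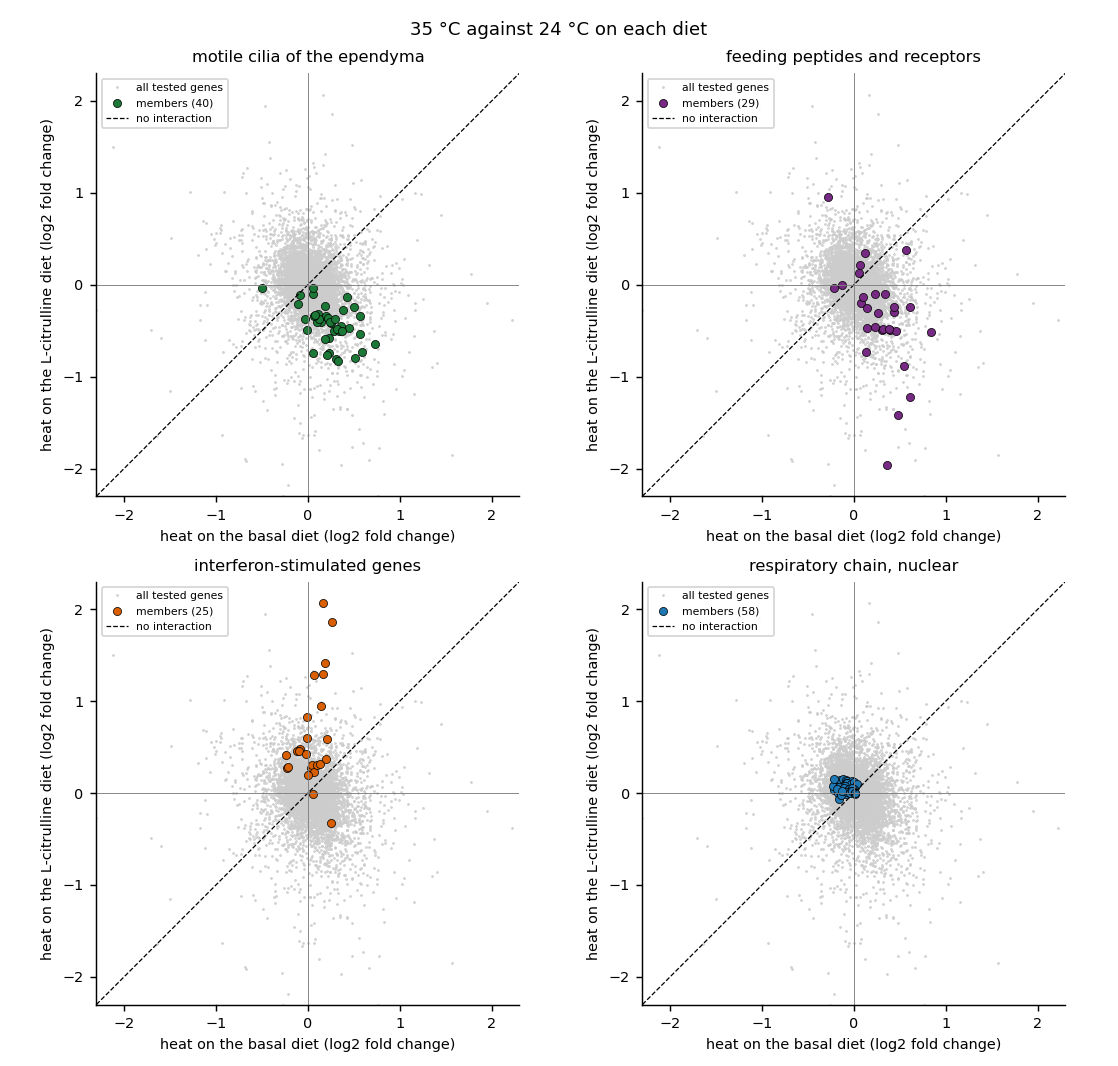
Log2 fold change of 35 °C over 24 °C on the L-citrulline diet (vertical axis) against that on the basal diet (horizontal axis), for all tested genes (grey, values beyond the axes drawn at their edge) and the members of 4 lists (coloured). Points below the dashed line have a negative interaction: 39 of 40 cilia genes and 23 of 29 feeding genes lie there, and 23 of 25 interferon-stimulated genes and 55 of 58 respiratory chain genes lie above it.

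Feeding peptides and their receptors also had mostly negative values. The arcuate neurons that make NPY drive feeding, those that make POMC restrain it through the melanocortin receptor MC4R, and peptides such as cholecystokinin, neuromedins and calcitonin-family hormones also curb intake. Of 29 tested members, 23 were below 0 and 6 above, where 48.5% of all tested genes were below 0, with a median of -0.68. At an unadjusted p under 0.05 were 8 lower members and 1 higher, against 4.26% of all tested genes lower and 3.3% higher, and none passed the adjusted threshold. On the L-citrulline diet 24 of 29 were lower at 35 °C, against 47.6% of all tested genes. On the basal diet 26 of 29 were higher, against 50.1%. The list also includes AGRP, HCRT, PMCH and GAL, whose values are not given here. The members named below therefore do not compare genes that drive feeding with genes that curb it.

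NPY (chr2:31464055-31472130) was the 1 higher member at that threshold. It had 62.4 to 207 CPM (median 145) in L-citrulline 35 °C birds and 44.4 to 104 CPM (median 80.8) in L-citrulline 24 °C birds. Basal birds had 38.4 to 106 CPM (median 73.4) at 35 °C and 59.7 to 122 CPM (median 82.8) at 24 °C. The L-citrulline 35 °C group was the high one and overlapped each of the others at its lower end. The heat difference was 0.95 ± 0.27 on the L-citrulline diet and -0.28 ± 0.27 on the basal diet, and the interaction was 1.23 ± 0.39 (95% confidence interval 0.43 to 2.03; edgeR adjusted p = 0.516).

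POMC, the precursor of the satiety peptide alpha-MSH, had -1.89 ± 0.90, the sign of most of the list, but was scarce. It had 0.144 to 1.3 CPM (median 0.374) in L-citrulline 35 °C birds, 0.0767 to 3.24 CPM (median 1.47) in L-citrulline 24 °C birds, 0.61 to 3.6 CPM (median 1.81) in basal 35 °C birds and 0.213 to 1.87 CPM (median 1.34) in basal 24 °C birds, with overlap. Its value was 0.15 among low-W birds alone, so its direction did not hold in both classes. That value rests in part on 2 L-citrulline 24 °C birds, of which bird 5 had 1 read. CARTPT, another satiety peptide, had -1.83 ± 0.87. NMU and NMB, neuromedins that reduce intake, had -2.32 ± 0.87 and -0.73 ± 0.28. Values per bird are not given for CARTPT, NMU and NMB, so whether they rest on few reads or birds is not shown here. TAC1, the precursor of substance P and neurokinin A (chr2:24644607-24650874), had 33.2 to 75.6 CPM (median 52.6) in L-citrulline 35 °C birds and 41.2 to 105 CPM (median 66.9) in L-citrulline 24 °C birds, against 67.2 to 142 CPM (median 81.2) in basal 35 °C birds and 61.7 to 75.7 CPM (median 70.6) in basal 24 °C birds. Its interaction was -0.88 ± 0.31 with overlapping ranges (edgeR adjusted p = 0.568).

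Among the receptors, CCKBR, the cholecystokinin B receptor (chr1:197392646-197395026), had 8.33 to 11.5 CPM (median 10.6) in L-citrulline 35 °C birds and 12 to 18 CPM (median 13.5) in L-citrulline 24 °C birds, with no overlap. Basal birds had 10.2 to 14.1 CPM (median 12.1) at 35 °C and 7.44 to 12.3 CPM (median 9.77) at 24 °C, and these overlapped. The interaction was -0.79 ± 0.19 (edgeR adjusted p = 0.367), with -0.50 among high-W birds and -0.92 among low-W birds.

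CALCR, the calcitonin receptor, which also binds amylin (chr2:23060807-23197789), had 5.01 to 8.93 CPM (median 7.34) in L-citrulline 35 °C birds, again all below the 9.09 to 14.4 CPM (median 11.4) of L-citrulline 24 °C birds. The basal groups had 6.83 to 13.9 CPM (median 8.85) at 35 °C and 6.82 to 10.2 CPM (median 8.35) at 24 °C, and the interaction was -0.86 ± 0.26. MC4R (chr2:69056000-69056995) had 2.03 to 6.79 CPM (median 5.01) in L-citrulline 35 °C birds, 4.93 to 17.2 CPM (median 7.53) in L-citrulline 24 °C birds, 6.4 to 11.2 CPM (median 8.76) in basal 35 °C birds and 3.26 to 9.28 CPM (median 6.1) in basal 24 °C birds. Its groups overlapped, with an interaction of -1.44 ± 0.42 (edgeR adjusted p = 0.516).

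Beside the feeding list, the hypothalamic region markers, which depend on where the tissue was cut, had the same sign. The 29 hypothalamic region markers had a median interaction of -0.66, with 24 below 0, against 48.5% of all tested genes. Of the 29, 2 were lower at an unadjusted p under 0.05, SIX3 (-0.76 ± 0.31) and OTP (-1.08 ± 0.52), against 4.26% of all tested genes. With the mean region marker level as a covariate the feeding median was -0.43. The region markers' own median was then -0.082, which adjusting for their own mean moves toward 0 by construction. By limma voom the region median was -0.40. Among low-W birds alone the feeding median was -0.017, and among high-W birds -0.50. NKX2-1, the factor that marks much of the ventral hypothalamus, had 1.1 to 8.5 CPM (median 2.68) in L-citrulline 35 °C birds, 0.406 to 12 CPM (median 5.92) in L-citrulline 24 °C birds, 2.2 to 8.19 CPM (median 6.48) in basal 35 °C birds and 3.33 to 7.95 CPM (median 4.37) in basal 24 °C birds. The part of tissue composition in the single feeding genes was not tested further.

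**Figure D3:**
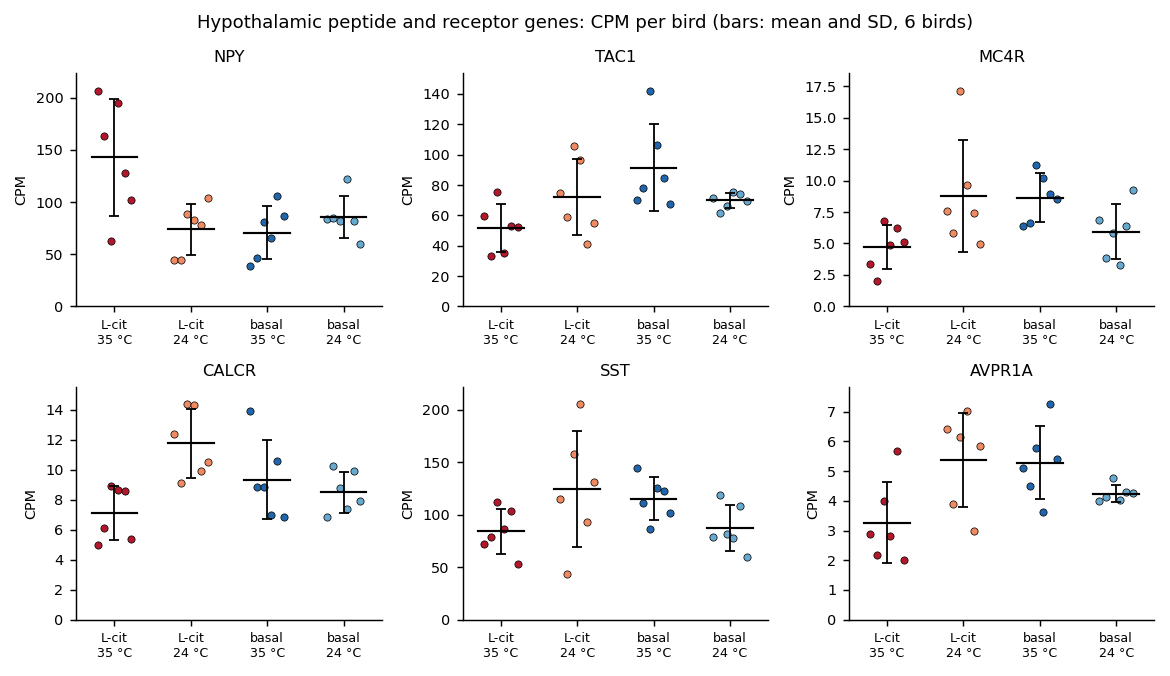
CPM in each bird (points) of NPY, TAC1, MC4R, CALCR, SST and AVPR1A, with mean and SD (bars, 6 birds per group), for L-citrulline 35 °C, L-citrulline 24 °C, basal 35 °C and basal 24 °C birds from left to right. NPY was highest in L-citrulline 35 °C birds, with a median of 145 CPM, and the other 5 genes had their lowest or near-lowest medians there.

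Other hormone axes had smaller medians. In the stress and thyroid list, 12 of 18 tested members were below 0 (median -0.34), against 48.5% of all tested genes. The members at an unadjusted p under 0.05 were 4 lower and 1 higher, where 4.26% of all tested genes were lower and 3.3% higher. With the region markers as a covariate the median was -0.14. AVPR1A, a receptor for the avian antidiuretic peptide vasotocin (chr1:33419044-33421641), had 2.02 to 5.67 CPM (median 2.85) in L-citrulline 35 °C birds and 2.99 to 7.03 CPM (median 6.0) in L-citrulline 24 °C birds. It had 3.63 to 7.26 CPM (median 5.26) in basal 35 °C birds and 4.0 to 4.76 CPM (median 4.19) in basal 24 °C birds. The ranges overlapped, and the interaction was -1.04 ± 0.32 (edgeR adjusted p = 0.516).

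CRHR1, the receptor through which corticotropin-releasing hormone acts, had -0.65 ± 0.26, and CRHBP, the protein that binds and buffers that hormone, 1.67 ± 0.63. CRHBP varied widely, with 9.0 to 95.8 CPM (median 39.2) in L-citrulline 35 °C birds, 8.27 to 43.4 CPM (median 16) in L-citrulline 24 °C birds, 9.49 to 37.2 CPM (median 22.4) in basal 35 °C birds and 13.5 to 52.3 CPM (median 30.4) in basal 24 °C birds. TRH, which starts the thyroid axis, had -1.58 ± 0.68, and its values per bird are not given here.

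In the reproductive and growth list, 15 of 19 members were below 0 (median -0.36), against 48.5% of all tested genes. At an unadjusted p under 0.05, 4 were lower, against 4.26% of all tested genes. The median was -0.25 with the region markers as a covariate. SST, somatostatin, which restrains growth hormone (chr9:14959957-14961612), had 52.9 to 112 CPM (median 82.7) in L-citrulline 35 °C birds, 43.2 to 206 CPM (median 123) in L-citrulline 24 °C birds, 86.4 to 145 CPM (median 117) in basal 35 °C birds and 59.8 to 118 CPM (median 80.5) in basal 24 °C birds. Its interaction was -0.96 ± 0.35, or -0.47 with the region markers as a covariate. Its receptors SSTR2 and SSTR5 had -0.62 ± 0.26 and -0.59 ± 0.25, and PRLR, the prolactin receptor, which the choroid plexus also expresses, -0.83 ± 0.34.

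Genes that define a neuron's transmitter had 13 of 18 members below 0 (median -0.26), against 48.5% of all tested genes. Of the 18, 6 were lower and 1 higher at an unadjusted p under 0.05, where 4.26% of all tested genes were lower and 3.3% higher. The 6 included the cholinergic genes CHAT (-2.16 ± 0.83), SLC18A3 (-1.30 ± 0.54) and SLC5A7 (-1.67 ± 0.78), which make, package and recycle acetylcholine. CHAT (chr6:3650070-3681305) had 0.737 to 5.11 CPM (median 1.42) in L-citrulline 35 °C birds, 1.99 to 22.4 CPM (median 9.09) in L-citrulline 24 °C birds, 1.87 to 7.55 CPM (median 2.96) in basal 35 °C birds and 1.3 to 12.1 CPM (median 2.74) in basal 24 °C birds. The L-citrulline 24 °C birds were the spread-out, high group. SLC17A8, the vesicular glutamate transporter VGLUT3, had -1.46 ± 0.42, and DDC, the decarboxylase of dopamine and serotonin neurons, -1.10 ± 0.41. The 1 higher member was HDC (1.10), which was scarce, with group medians of 0.70 to 1.13 CPM. Among high-W birds alone the list median was 0.012, and among low-W birds -0.44. It was -0.13 with the region markers as a covariate.

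Clock genes had a median near 0 and 4 members with positive values at an unadjusted p under 0.05. Of 20 tested members, 12 were above 0 and 8 below, against 51.5% and 48.5% of all tested genes. Their median was 0.032, or -0.0093 with the region markers as a covariate. The 4 at that threshold compare with 3.3% of all tested genes that were higher there. RORA, the nuclear receptor that activates BMAL1 transcription (chr10:5138735-5486292), had 9.11 to 13.6 CPM (median 13) in L-citrulline 35 °C birds and 6.37 to 10.1 CPM (median 8.47) in L-citrulline 24 °C birds. Basal birds had 7.91 to 13 CPM (median 10.8) at 35 °C and 9.35 to 14.7 CPM (median 12.4) at 24 °C. The L-citrulline 24 °C birds were lowest, with some overlap, and the interaction was 0.78 ± 0.19 (edgeR adjusted p = 0.367). RORB, its relative, which is also in the list of thalamus, telencephalon and tectum markers, had 0.86 ± 0.36. NR1D2, the REV-ERB repressor that competes for the same sites, had 0.46 ± 0.14, with 0.22 among high-W birds and 0.57 among low-W birds. HLF, a clock output factor, had 0.44 ± 0.15. The labels give no hour of sampling.

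Interferon-stimulated genes had mostly positive values that depended in part on 1 bird. These genes encode antiviral effectors switched on by type I interferon. Of 25 tested members, 23 were above 0 (median 0.50), against 51.5% of all tested genes. Of the 25, 7 were at an unadjusted p under 0.05, all higher, where 3.3% of all tested genes were. OASL, an antiviral oligoadenylate synthetase relative (chr12:3635427-3637460), had 6.57 to 122 CPM (median 17.7) in L-citrulline 35 °C birds, 7.03 to 14.9 CPM (median 8.45) in L-citrulline 24 °C birds, 9.83 to 15.3 CPM (median 12) in basal 35 °C birds and 8.68 to 13.3 CPM (median 10.1) in basal 24 °C birds. L-citrulline 35 °C bird 6 held the highest value, and 2 birds of that group lay within or below the range of the L-citrulline 24 °C birds. Its interaction was 1.59 ± 0.67, and 0.55 without bird 6.

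MX1, an antiviral GTPase, had 2.79 to 23.7 CPM (median 8.54) in L-citrulline 35 °C birds, 2.86 to 6.22 CPM (median 4.02) in L-citrulline 24 °C birds, 3.05 to 6.98 CPM (median 5.18) in basal 35 °C birds and 3.67 to 6.24 CPM (median 4.96) in basal 24 °C birds. Its interaction was 1.22 ± 0.52, and 0.79 without bird 6. IFI35, an interferon-induced protein, had 0.50 ± 0.20, and DTX3L, a ubiquitin ligase, 0.65 ± 0.27, or 0.41 without bird 6. Without that bird the median of the list was 0.21. It was 0.14 among high-W birds and 0.93 among low-W birds. Bird 6 was 1 of the 2 low-W birds of its group, so the class values and the value without it are not separate checks. Microglial markers, of which 13 of 15 were above 0, against 51.5% of all tested genes, had a median of 0.17. Their part in the interferon values was not tested.

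**Figure D4:**
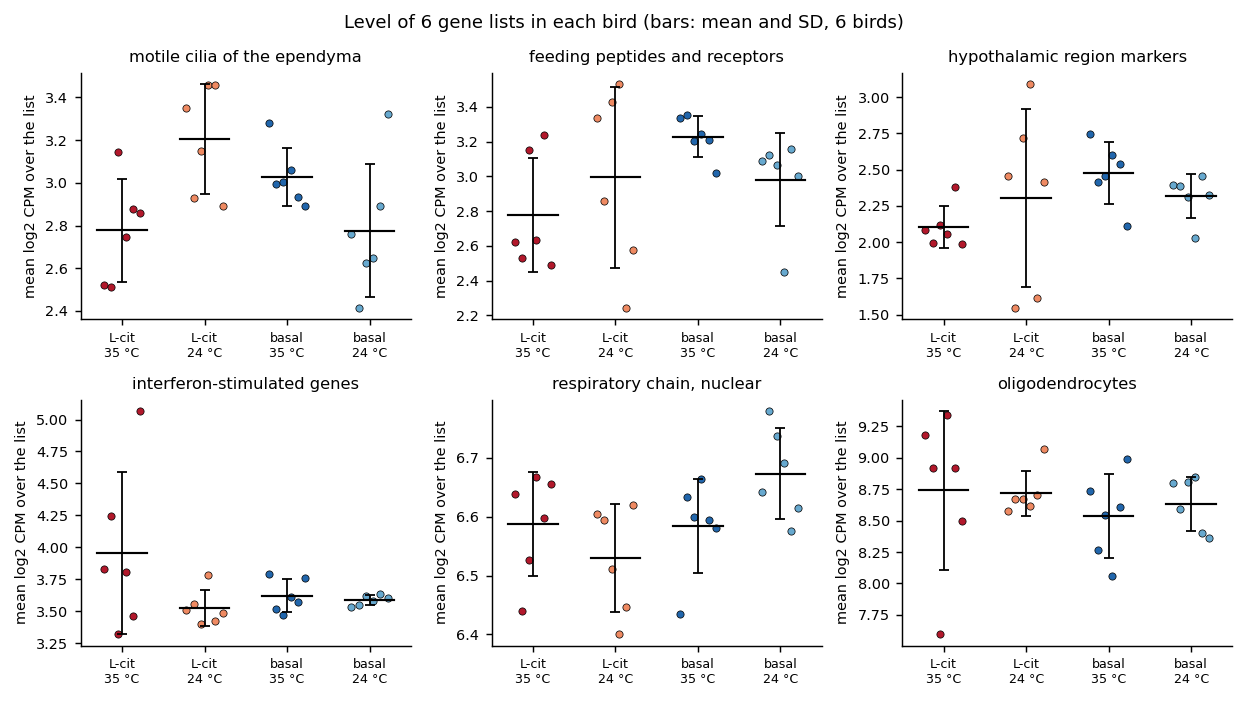
Mean log2 CPM of 6 gene lists in each bird (points), with mean and SD (bars, 6 birds per group), for L-citrulline 35 °C, L-citrulline 24 °C, basal 35 °C and basal 24 °C birds from left to right. Cilia genes had medians of 2.80 in L-citrulline 35 °C birds, 3.25 in L-citrulline 24 °C birds, 3.00 in basal 35 °C birds and 2.70 in basal 24 °C birds, the L-citrulline 24 °C group was spread out for feeding and region markers, and 1 L-citrulline 35 °C bird stood at 5.07 for interferon-stimulated genes.

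Nuclear genes of the respiratory chain, which builds the mitochondrial proton gradient and ATP, had small values with 1 sign. Of 58 tested members, 55 were above 0, against 51.5% of all tested genes, with a median of 0.15. At an unadjusted p under 0.05 were 13, all higher, where 3.3% of all tested genes were. On the L-citrulline diet 53 of 58 were higher at 35 °C (median 0.052), against 52.4% of all tested genes. On the basal diet 53 of 58 were lower (median -0.083), against 49.9% of all tested genes. ATP5MF, a membrane subunit of ATP synthase (chr14:4796009-4797562), had 52.3 to 73.5 CPM (median 66.5) in L-citrulline 35 °C birds, 59.1 to 67 CPM (median 60.9) in L-citrulline 24 °C birds, 59.8 to 72 CPM (median 64.8) in basal 35 °C birds and 66.2 to 85.7 CPM (median 74.7) in basal 24 °C birds. The basal 24 °C birds were highest, with overlap, and the interaction was 0.30 ± 0.10 (edgeR adjusted p = 0.568), with 0.0023 among high-W birds and 0.56 among low-W birds.

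UQCRC1 of complex III had 0.21 ± 0.075, COX6C of complex IV 0.24 ± 0.090 and NDUFB9 of complex I 0.21 ± 0.079. The list median was 0.016 among high-W birds and 0.24 among low-W birds. Scaled by library size alone, which moved the median of all genes to -0.023, it was 0.11. The 13 protein-coding genes of the mitochondrial genome had a median of -0.053, with 10 below 0, against 48.5% of all tested genes.

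Genes of cholesterol and fatty acid synthesis had 28 of 32 members above 0, against 51.5% of all tested genes, with a median of 0.15. ACACA, the acetyl-CoA carboxylase of fatty acid synthesis, had 0.18 ± 0.072, and SC5D, a late enzyme of cholesterol synthesis, 0.21 ± 0.088, and these were the 2 of 32 members at an unadjusted p under 0.05, a share near the 7.56% of all tested genes in either direction. Oligodendrocytes make much of the brain's cholesterol for myelin, and 13 of their 14 markers were above 0 (median 0.20, or 0.35 without L-citrulline 35 °C bird 3 and 0.087 without L-citrulline 35 °C bird 4). The oligodendrocyte level was 7.59 to 9.34 (median 8.92) in L-citrulline 35 °C birds, 8.58 to 9.07 (median 8.67) in L-citrulline 24 °C birds, 8.06 to 8.99 (median 8.58) in basal 35 °C birds and 8.36 to 8.84 (median 8.7) in basal 24 °C birds. Its part in the lipid values was not tested.

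The lists closest to the treatments had medians near 0. Heat shock proteins and cytosolic chaperones, which refold heat-damaged proteins, had 16 of 31 members above 0 (median 0.0039), against 51.5% of all tested genes. They had 1 at an unadjusted p under 0.05, HSPB8 (0.64 ± 0.26, with 0.12 among high-W birds and 0.90 among low-W birds), against 7.56% of all tested genes. HSPA8, the constitutive cytosolic HSP70, had 2572 to 3126 CPM (median 2781) in L-citrulline 35 °C birds, 2338 to 3275 CPM (median 2846) in L-citrulline 24 °C birds, 2481 to 3096 CPM (median 2850.1) in basal 35 °C birds and 2677 to 3127 CPM (median 2804) in basal 24 °C birds. Its groups overlapped fully, and the 95% confidence interval of the interaction was -0.19 to 0.23. HSP90AA1 had an interval of -0.26 to 0.21, and HSPA5, the chaperone of the endoplasmic reticulum, -0.29 to 0.30. Of 21 genes of endoplasmic reticulum stress, 12 were above 0 (median 0.0013), and SESN2, a stress-induced sestrin, was the 1 at an unadjusted p under 0.05 (-0.49 ± 0.17, with -0.16 among high-W birds and -0.64 among low-W birds).

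Arginine, citrulline and nitric oxide genes had 12 of 25 members above 0 (median -0.019), against 51.5% of all tested genes. None was at an unadjusted p under 0.05, against 7.56% of all tested genes. ASS1, which condenses citrulline with aspartate (chr17:6180976-6201571), had 57.2 to 86.4 CPM (median 59.1) in L-citrulline 35 °C birds, 44.2 to 71.5 CPM (median 50.4) in L-citrulline 24 °C birds, 54 to 70.8 CPM (median 64.6) in basal 35 °C birds and 42.8 to 72.1 CPM (median 64.5) in basal 24 °C birds. Its interaction was 0.19 ± 0.19 (95% confidence interval -0.20 to 0.59). NOS1, the neuronal nitric oxide synthase, had 13.5 to 40.8 CPM (median 21) in L-citrulline 35 °C birds, 11.4 to 31.5 CPM (median 24.1) in L-citrulline 24 °C birds, 16.3 to 31 CPM (median 21.5) in basal 35 °C birds and 19.4 to 27.9 CPM (median 23.2) in basal 24 °C birds. The interval of its interaction, -0.69 to 0.70, leaves room for a difference in either direction.

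Immediate early genes, markers of recent neuronal firing, had a median of 0.034 (0.46 among high-W birds and -0.061 among low-W birds) and none of 18 at an unadjusted p under 0.05. FOS had 44.4 to 70.1 CPM (median 58.9) in L-citrulline 35 °C birds, 32.4 to 67.3 CPM (median 42.9) in L-citrulline 24 °C birds, 30.9 to 66.7 CPM (median 54.3) in basal 35 °C birds and 47.2 to 65.5 CPM (median 60.7) in basal 24 °C birds. Antioxidant enzymes had a median of 0.031 (-0.083 among high-W birds and 0.090 among low-W birds), with none of 29 at that threshold. Thermosensing channels and prostaglandin genes had a median of -0.042 (0.20 among high-W birds and -0.13 among low-W birds), with 2 of 21 there against 7.56% of all tested genes, both higher and including TRPM8, the cold and menthol receptor (1.07 ± 0.49, or 0.56 without L-citrulline 35 °C bird 2).

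**Figure D5:**
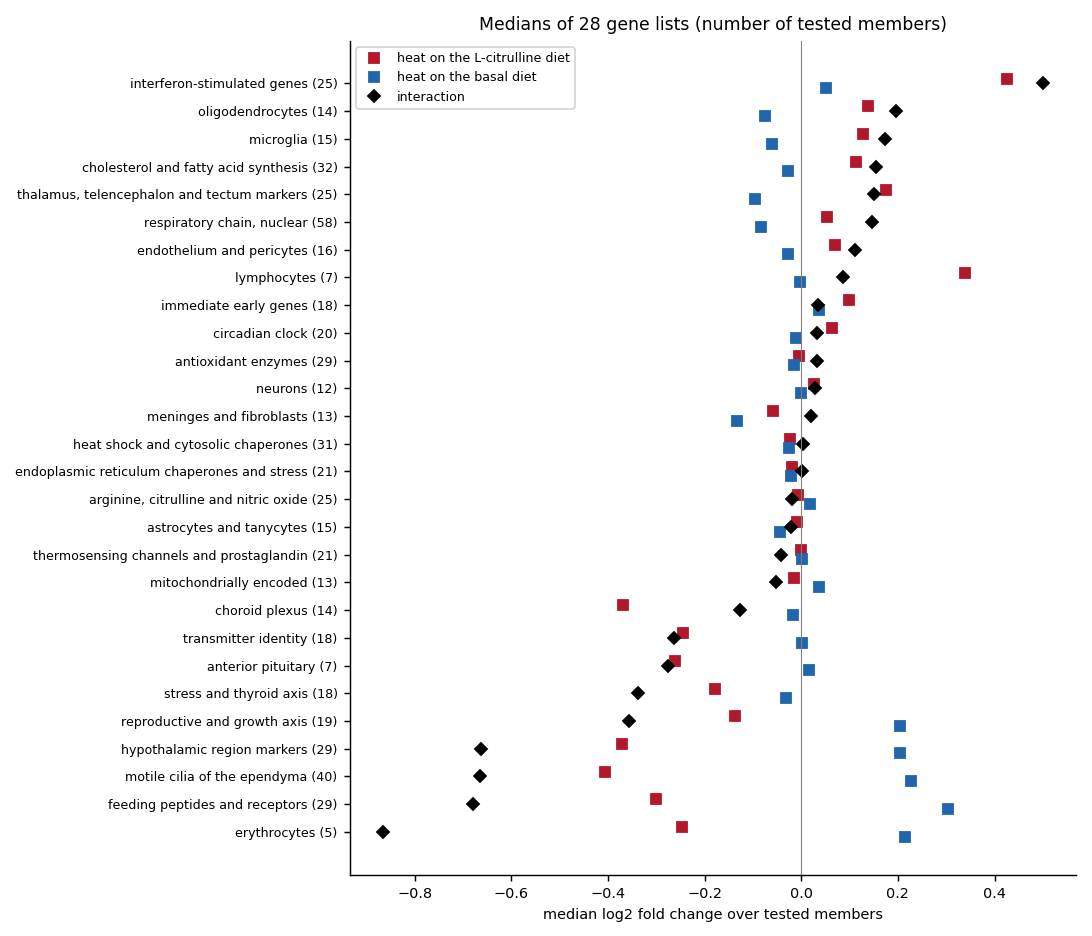
Median log2 fold change over the tested members of 28 gene lists for heat on the L-citrulline diet (red squares), heat on the basal diet (blue squares) and the interaction (black diamonds), ordered by the interaction. Medians ran from 0.50 for interferon-stimulated genes to -0.87 for 5 erythrocyte markers, and cilia, feeding and region markers had the heat medians of the 2 diets on opposite sides of 0.

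A few further genes were followed because earlier results of the single-factor comparisons in these data had named them. That choice favours groups that do not overlap in those comparisons. YWHAE, a 14-3-3 adaptor protein (chr19:5330957-5350899), had 30.9 to 41.6 CPM (median 33.4) in L-citrulline 35 °C birds, 31.1 to 38.9 CPM (median 33.8) in L-citrulline 24 °C birds, 30.3 to 37.6 CPM (median 34.6) in basal 35 °C birds and 39.3 to 46.8 CPM (median 41.9) in basal 24 °C birds. The basal 24 °C birds lay above all basal 35 °C and all L-citrulline 24 °C birds, and the interaction was 0.35 ± 0.11. ESYT3, a membrane contact protein (chr7:28286840-28313799), had 4.07 to 5.9 CPM (median 5.16) in L-citrulline 35 °C birds, below every bird of the other groups. The ranges there were 6.9 to 12.3 CPM (L-citrulline 24 °C), 7.03 to 13.2 CPM (basal 35 °C) and 6.13 to 11.4 CPM (basal 24 °C). The interaction of ESYT3 was -0.86 ± 0.24. TP53I3, an oxidoreductase induced by p53, had 1.34 ± 0.43, with 0.55 among high-W birds and 1.76 among low-W birds.

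The 2 genes that passed the adjusted threshold in DESeq2 have no symbol in the table and lie on chromosome 5. ENSGALG00000009552 (chr5:29151954-29157524), described there as galectin-related protein-like, had 0.144 to 0.69 CPM (median 0.294) in L-citrulline 35 °C birds and 0.69 to 2.6 CPM (median 1.05) in L-citrulline 24 °C birds. Basal birds had 0.492 to 2.09 CPM (median 0.779) at 35 °C and 0.137 to 0.599 CPM (median 0.307) at 24 °C. The L-citrulline 24 °C birds lay above all basal 24 °C birds. The lowest L-citrulline 24 °C bird and the highest L-citrulline 35 °C bird tied at 9 reads (0.69 CPM). The interaction of this gene was -3.41 ± 0.64 in edgeR (adjusted p = 0.241), and the adjusted p in DESeq2 was 0.00922. ENSGALG00000029618 (chr5:635160-635774) had 0.958 to 2.99 CPM (median 2.15) in L-citrulline 35 °C birds, 2.6 to 7.29 CPM (median 3.94) in L-citrulline 24 °C birds, 1.62 to 4.6 CPM (median 3.43) in basal 35 °C birds and 0.275 to 2.4 CPM (median 1.57) in basal 24 °C birds. Its interaction was -2.35 ± 0.51 (edgeR adjusted p = 0.367, DESeq2 adjusted p = 0.029). Both were scarce, and both kept the same sign without any single library.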

How the data were processed

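Hypothalamic RNA from 24 Ross 308 broilers was sequenced as 1 library per bird. The deposited table holds whole-number read counts per gene and FPKM made by the authors, as its headers say. HISAT2, TopHat, HTSeq and DESeq, and the build GRCg6a, come from the submitters' processing notes, without versions, roles or strand setting. Only the deposited counts were tested. Gene coordinates were taken from the same table. The FPKM values of the authors were read but no test rests on them. The authors' comparison, enrichment and heat map tables are not used here.

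In R 4.3.3, genes with low counts were removed by filterByExpr (13742 kept of 16779, 550 with no count in any library, 4303 with no symbol). TMM scaling (factors 0.967 to 1.03) preceded a fit in edgeR 4.0.16 with 1 mean per group, all 24 libraries together and no covariate. The interaction was tested by the quasi-likelihood F test (20 residual and 3.58 prior degrees of freedom, biological coefficient of variation 0.186), with Benjamini-Hochberg adjustment at 0.05 and no minimum fold. CPM values use the scaled library sizes, and list levels are means of log2 CPM with a prior count of 2. DESeq2 1.42.0 and limma 3.58.1 were alternatives, and the scripts were tested on simulated data. Confidence intervals and p-values measure the spread between birds at this depth.

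The interaction, the members and the gene lists were chosen with earlier results of these data known. The text names the 24 genes with a symbol and the smallest interaction p, the 4 members with the smallest p in each of the main lists, genes past the adjusted threshold in any of the 3 tools, and a fixed group including NPY, TAC1, POMC, NOS1, ASS1 and HSPA8. A few genes that this rule names are not reported here. Further list members were named after their values were seen. Lists were described by counts and medians and were not tested as sets. Within groups, no libraries were copies of one another (chi-square per degree of freedom 7.39 to 91.7 over 60 pairs). The labels do not say whether birds of equal replicate number in different groups were housed or sampled together. The main fit treated them as unpaired. Promoter sequences were not analysed here.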

Additional observations from a re-analysis of the deposited data

Results flagged for a closer look

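A bird was marked where its gap to the nearest bird of its group exceeded Dixon's 95% limit for 6 values, as a share of the group's range. Of 480 groups of 6 values checked (92 genes and 28 lists in each of the 4 groups), 33 were marked (6.88%), and chance marks about 1 in 20.

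Basal 35 °C bird 1 accounted for 7. It was lowest for COX6C (149 CPM), HLF (62.1 CPM), NR1D2 (61.4 CPM), SIPA1L2 (112 CPM) and the respiratory chain list (mean log2 CPM 6.43), and highest for DLEC1 (11.3 CPM) and NR4A2 (43.6 CPM). Without it the interaction of NR4A2 was -0.54, against -1.22 with all birds.

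Among L-citrulline 35 °C birds, bird 6 was highest for ASS1 (86.4 CPM), bird 3 was highest for HMOX2 (61.7 CPM) and SSTR2 (21.4 CPM), and bird 5 was highest for the hypothalamic region markers (mean log2 CPM 2.38). Without bird 6 the interaction of ASS1 was 0.083.

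In the L-citrulline 24 °C group, bird 2 was lowest for NKX2-1 (0.406 CPM) and SSTR5 (4.87 CPM), and bird 3 was highest for CRHR1 (18.5 CPM). Bird 6 was highest for lymphocyte markers (mean log2 CPM 0.821) and oligodendrocyte markers (9.07), and bird 5 for meninges and fibroblasts (5.73).

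Other basal 35 °C birds were bird 2, highest for CRHR1 (15.8 CPM), and bird 6, lowest for the reproductive and growth list (mean log2 CPM 3.33). Bird 3 was highest for LRGUK (12.6 CPM), SLC38A2 (479 CPM) and meninges and fibroblasts (mean log2 CPM 4.48), and lowest for SREBF2 (188 CPM).

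Among basal 24 °C birds, bird 5 was lowest for FBXO16 (2.10 CPM) and NR1D2 (86.5 CPM) and highest for FOSB (4.52 CPM), and bird 2 was lowest for PDIA6 (168 CPM). Bird 4 was lowest for POMC (0.213 CPM), the feeding list (mean log2 CPM 2.45) and the region markers (2.03). Bird 6 was highest for choroid plexus (4.63), bird 3 for meninges and fibroblasts (4.79) and bird 1 for arginine, citrulline and nitric oxide genes (5.41).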

How the results depend on the processing

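No gene passed the adjusted threshold under any alternative except the DESeq2 Wald test, which passed 2. Genes at an unadjusted p under 0.05 numbered 1039, and 826 (without L-citrulline 24 °C bird 4) to 1553 (without L-citrulline 35 °C bird 3) when single birds were left out. They numbered 430 among high-W birds alone, 1022 among low-W birds and 1021 with the replicate block. Deviations of same-numbered birds of different groups correlated by -0.402 to 0.401, and 14 of 36 pairs were over 0.1. Of 24 libraries, 4 correlated best with their own number. This check cannot exclude a weak effect shared by birds of equal number. Scaling by library size alone gave 321 higher and 722 lower genes (30.8% higher), against 453 and 586 (43.6% higher) by TMM, and a median of all genes of -0.023. With the libraries over 1000 CPM of TTR left out there were 1005, and with the region markers as a covariate 723, both chosen after seeing the data.

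Of 1103 values of named genes under alternatives that leave out no single bird, 1081 kept their direction and their side of the threshold, 2 came to pass it and 20 reversed. By DESeq2's size factors in edgeR, HSPA5 was -0.00037, by the stricter filter -5.6e-05 and by DESeq2 -0.00039. By library size alone, HSPA8 was -0.014, NOS1 -0.016 and HSPA5 -0.029. Among high-W birds GSS was -0.057, HSPA8 -0.065 and HSPA5 -0.0091. Among low-W birds POMC was 0.15, FOSB -0.059, CANX 0.0035, HSP90AA1 0.10, TTR 0.083 and NOS1 -0.20. Without the libraries over 1000 CPM of TTR, HSPA8 was -0.015, TTR 0.15 and HSPA5 -0.11. With the region covariate HSP90AA1 was 0.0027 and NOS1 -0.060. Leaving out single birds gave HSP90AA1 -0.073 to 0.014, HSPA8 -0.033 to 0.061, TTR -3.56 to 0.71, NOS1 -0.24 to 0.12 and HSPA5 -0.078 to 0.066. The cause was not tested. Depth limits the precision of scarce genes such as POMC and HDC, with group medians of 0.37 to 1.81 CPM.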

Other observations

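Among cell types not described above, endothelium and pericytes, astrocytes and tanycytes, neurons, and meninges and fibroblasts had small medians. Endothelium and pericytes had 11 of 16 members above 0, against 51.5% of all tested genes, with a median of 0.11. Astrocytes and tanycytes had 7 of 15 above 0, with a median of -0.021, and neurons 8 of 12, with a median of 0.028. Meninges and fibroblasts had a median of 0.021, which ranged from -0.21 to 0.65 when single birds were left out and was 0.60 among high-W birds and -0.74 among low-W birds. Their mean log2 CPM was 3.44 to 5.56 in L-citrulline 35 °C birds, 3.61 to 5.73 in L-citrulline 24 °C birds, 3.77 to 4.48 in basal 35 °C birds and 3.68 to 4.79 in basal 24 °C birds.

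Markers of neighbouring thalamus, telencephalon and tectum had 15 of 25 members above 0, against 51.5% of all tested genes, with a median of 0.15. GBX2, a thalamic transcription factor, had an interaction of 0.98 ± 0.40, and GATA3 1.21 ± 0.52. The other direction was also present, with 10 of the 25 below 0 and the lowest at -1.83. Values per bird are not given for GBX2 and GATA3. C1QA, a complement gene of microglia, had 0.51 ± 0.24. None of these passed an adjusted p of 0.05 in edgeR, and 3 members of the first list and 1 of the microglial list were higher at an unadjusted p under 0.05, against 3.3% of all tested genes.

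Erythrocyte markers (5 tested) had a median of -0.87, or -0.26 without basal 35 °C bird 6, and it was -1.49 among high-W birds and 0.047 among low-W birds. Bird 6 was 1 of the 2 high-W birds of the basal 35 °C group. The class values and the value without bird 6 are thus not separate checks, here and for lymphocyte markers. Lymphocyte markers (7 tested) had 0.086, or 0.25 without that bird, with 0.44 among high-W birds and -0.11 among low-W birds, and anterior pituitary markers (7 tested) -0.28, or 0.13 under the stricter filter on low counts.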
